A study of Mus musculus with 16 samples.

Results

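Senexin B was given to leukemic mouse cell lines in which Cdk8 had been deleted, so that its effect on RNA could be measured with the kinase CDK8 removed. The libraries were those that the labels assign to the Cdk8 knockout with Senexin B (4) or with its solvent DMSO (4), 8 of the 16 libraries in all. Libraries with the same replicate number were paired as 1 line, which gave 4 lines, here called lines 1 to 4. The cells were BCR-ABL1p185+ pro-B cell lines grown from bone marrow of C57BL/6N mice with the genotype Cdk8Δ/Δ Vav–Cre, in which Cre under the Vav promoter removes Cdk8 throughout blood cells. Every line thus carries the oncogene as well as the deletion. Cells received 1 µM Senexin B or 0.01% DMSO for 48 h. The other 8 libraries came from 4 lines labelled wild type, described as Cdk8fl/fl in the methods of the study, of the same strain and with the same oncogene, under the same 2 treatments, and serve here only for comparison. Between 13700307 and 16813588 reads were counted on genes in the 8 knockout libraries. Reads were counted without regard to strand, so genes that overlap on opposite strands cannot be told apart.

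Mediator is a large complex that links transcription factors to RNA polymerase II, and its kinase module joins it reversibly. The module holds a cyclin-dependent kinase, its partner cyclin C, and the large subunits MED12 and MED13 or their paralogs MED12L and MED13L. The kinase is either CDK8 or its paralog CDK19, never both at once, and Senexin B is a small molecule that inhibits both. In lines without CDK8, CDK19 is the remaining kinase of the module.

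RNA of Cdk8 itself was still counted in the knockout lines. With DMSO it stood at 35.6, 52.6, 47.4 and 43.1 CPM (counts per 1000000 counted reads, with TMM scaling over the 8 libraries) in lines 1 to 4, and with Senexin B at 44.2, 62.4, 43.2 and 41.5 CPM. The groups overlapped, with 2 lines higher and 2 lower, and line 2 with Senexin B was the highest of the 8. The counts cover the whole gene (ENSMUSG00000029635.15, chromosome 5, 146231230 to 146302874), including exons outside the deleted part, so they do not check the deletion, and they measure RNA and not protein. The log2 fold change was 0.09 (standard error 0.11). On 1 scale for all 16 libraries, Cdk8 ran from 35.3 to 52.1 CPM in knockout and from 61.8 to 68.7 in wild-type lines with DMSO. With Senexin B the ranges were 41.2 to 61.7 and 55.2 to 89.4 CPM, which overlapped.

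The partners of CDK8 were measured per kilobase of exon so that genes of different length could be set side by side. Cdk19 RNA, at 27.4 ± 3.88 CPM per kilobase with DMSO and 27.1 ± 4.02 with Senexin B (SD, n = 4 lines), had the highest group means of the 7 genes of the module. In line 4 with DMSO, Med13 (28.0) and Med12 (25.1) stood above Cdk19 (24.7). With Senexin B, Med12 (28.9) stood just above Cdk19 (28.8) in that line. Cdk8 stood at 4.54 ± 0.729 and 4.87 ± 0.996 CPM per kilobase, Ccnc, which encodes cyclin C, at 10.6 ± 1.19 and 8.66 ± 1.67. Med12 and Med13 were near Cdk19, with 21.3 and 21.5 CPM per kilobase with DMSO, Med13l lay at 11.9, and Med12l was the lowest at 0.511. None of the 7 passed the test of the Senexin B response by edgeR, for which 1 of them, Med13l, had an unadjusted p of 0.0257. Med13l was higher in 4 of 4 lines (log2 fold change 0.29) and Ccnc lower in 4 of 4 (log2 fold change -0.30), with edgeR adjusted p of 0.404 and 0.494. Cdk19 had a log2 fold change of -0.02, with 1 line higher and 3 lower. Ccnc overlaps Tstd3 and Med13 overlaps Brip1os on the opposite strand, and Med13 reads in particular can include those of Brip1os, which had 17017 counts over the 8 libraries.

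The lines had the RNA profile of pro-B cells. All 16 pro-B markers passed the filter on low counts, led by Igll1 (surrogate light chain, median 1197 CPM over the 8 libraries), Ebf1 (1177) and Pax5 (1122), the factors that set up B-lineage identity. The lines differed among themselves: Dntt, which adds bases at V(D)J joins, had 285 CPM in line 1 with DMSO against 1.84 to 3.56 in lines 2, 3 and 4, and Kit had 73.1 CPM in line 2 with DMSO against 0 counts in line 4. Markers of other cells were mostly absent. Of 12 myeloid markers, 11 had a median under 1 CPM and 3 were at 0 in all 8 libraries, among them S100a8 and S100a9. The most abundant of that list was Lyz2, which encodes lysozyme, with 24.9 CPM in line 1 with DMSO and 7.87 with Senexin B, and at most 2.15 CPM elsewhere. With Senexin B, Lyz2 was lower in lines 1, 2 and 4 and higher in line 3 (log2 fold change -1.14, edgeR unadjusted p 0.00735). The summed level of the 12 myeloid markers went from 26.2 to 8.34 CPM in line 1, from 3.48 to 2.30 in line 2, from 0.957 to 1.16 in line 3 and from 2.89 to 2.46 in line 4. T-cell and NK-cell markers other than Lck, a kinase that pro-B cells also express, and Klrb1c had medians under 1 CPM (8 of 10). Klrb1c, an NK-cell receptor, had 1.01, 0.570, 5.04 and 20.7 CPM with DMSO and 0.579, 0.278, 20.7 and 82.0 CPM with Senexin B, so that it was higher in lines 3 and 4 and lower in lines 1 and 2 (log2 fold change 1.42, unadjusted p 0.0178). All 8 erythroid and megakaryocyte markers had medians under 1 CPM. Of the 6 markers of plasmacytoid dendritic cells, Siglech, Klk1 and Ccr9 were near 0, while Cox6a2, Bst2 and Pacsin1 had medians of 29.0, 17.4 and 1.80 CPM. Bst2 and Pacsin1 were higher in 4 of 4 lines with Senexin B (log2 fold changes 0.38 and 0.56), and Cox6a2 went both ways (-0.51). Of the 7 stromal markers, the collagens Col1a2 and Col3a1 and the chemokine Cxcl12 were at 0 in all libraries, and Pecam1, which B-lineage precursors also express, had a median of 151 CPM. Of the 6 markers of mature B or plasma cells, Jchain was at 110 and 52.6 CPM in lines 3 and 4 with DMSO and at 3.02 and 5.06 in lines 1 and 2. With Senexin B it was lower in 4 of 4 lines, at 1.62, 3.76, 61.1 and 52.1 CPM in lines 1 to 4 (log2 fold change -0.51, unadjusted p 0.0206), while Cr2, Ighd and Sdc1 of the same list went both ways between lines, with log2 fold changes of -0.54, -0.09 and 0.28. Prdm1, a factor of plasma cells, had 2.01, 0.949, 9.83 and 5.12 CPM with DMSO and 5.33, 0.487, 17.5 and 31.6 with Senexin B, higher in 3 lines and lower in line 2 (log2 fold change 1.32). In bulk RNA, fewer cells of a type and less RNA per cell cannot be told apart.

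Senexin B moved few genes beyond the spread between lines, in both directions, and a larger number showed the same sign in every line. Of 13285 genes tested with the line as a block, 7 (0.0527%) passed at an edgeR adjusted p under 0.05 with a fold change over 2, of which 5 were higher (0.0376%) and 2 lower (0.0151%) with Senexin B. All 7 changed in the same direction in 4 of 4 lines. Without a limit on the fold change the number was also 7. At an unadjusted p under 0.05 there were 1368 genes (10.3%), 651 higher (4.90%) and 717 lower (5.40%). The same sign in 4 of 4 lines was seen for 1195 genes higher (9.0%) and 1348 lower (10.1%), 2543 in all. Their median absolute log2 fold change was 0.297, against 0.139 over all tested genes, a gap that the choice by a shared sign itself favours. Some of the 2543 would share a sign without any effect of Senexin B, and their number was not estimated. Of those higher 66 (0.497% of the 13285 tested genes) and of those lower 46 (0.346% of the tested genes) also changed by more than 2-fold in the fit. Log2 fold changes above 0 (6487) and below 0 (6798) were nearly balanced, with a median of -0.00594. TMM scaling places the centre of the fold changes near 0, so this balance says nothing on the direction of the response. P-values measure the spread between these 4 lines. Where groups are said not to overlap, this describes the values printed. It is not said of every such gene, and its share over all tested genes is not given here.

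The number of calls depends on which lines are in the fit. Without line 1, 31 genes passed, 26 higher and 5 lower. Without line 2, and without line 4, the count was 0 by edgeR, with 953 and 1029 genes at an unadjusted p under 0.05. Without line 3, 2 genes passed. With all 4 lines, DESeq2 with the same block called 77 genes among the 27858 with at least 1 count, and also 77 among the 13285 genes tested by edgeR, an alternative added after seeing the data.

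Bhlhe41 and Slco1a5 rose. Bhlhe41 encodes a basic helix-loop-helix repressor that binds E-boxes and takes part in circadian control. It stood at 11.3, 72.6, 105 and 121 CPM with DMSO and at 22.2, 150, 250 and 292 CPM with Senexin B. Each line nearly doubled or more, with line 1 far below the other lines in both groups, so the groups overlapped, and the change was close to the same size across lines (log2 differences of 0.94, 1.04, 1.25 and 1.27). The fitted log2 fold change was 1.14 (standard error 0.095, edgeR adjusted p 0.0125, 4 of 4 lines). Slco1a5 encodes an organic anion transporter of the solute carrier family. It had 0.503, 2.40, 3.32 and 6.89 CPM with DMSO and 1.45, 7.58, 21.6 and 35.8 CPM with Senexin B. Lines 3 and 4 were high and line 1 low, and only line 1 with Senexin B fell within the range of the DMSO group. The log2 fold change was 2.19 (standard error 0.23, edgeR adjusted p 0.0395, 4 of 4 lines). Bhlhe41 overlaps Gm43909 on the opposite strand (533 counts in the 8 libraries).

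Dchs2 and Grap2 rose by smaller or more uneven amounts. Dchs2 encodes a large protocadherin of the dachsous family. It had 0.0629, 2.78, 26.0 and 2.45 CPM with DMSO and 0.463, 10.3, 83.0 and 6.32 with Senexin B, so that line 3 held most of its RNA in both groups and line 1 only 1 and 8 counts. The log2 fold change was 1.69 (standard error 0.17, edgeR adjusted p 0.0395, 4 of 4 lines), and Gm10710 overlaps it on the opposite strand. Grap2 encodes an adaptor that couples receptor signalling in lymphocytes. Its levels were 27.2, 20.9, 19.8 and 10.9 CPM with DMSO and 63.6, 39.0, 37.7 and 23.0 CPM with Senexin B, and line 4 with Senexin B lay within the DMSO range. The log2 fold change was 1.03 (standard error 0.11, edgeR adjusted p 0.0395, 4 of 4 lines). Without line 1 the log2 fold change of Grap2 was 0.96, under the limit of 1, with an edgeR adjusted p of 0.0407 and all 3 lines left higher.

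Pld4 and Tmem255a fell. Pld4 encodes an endosomal exonuclease that degrades single-stranded nucleic acids and so limits Toll-like receptor signalling. Its levels were 55.5, 14.5, 17.6 and 18.1 CPM with DMSO and 13.5, 2.43, 5.32 and 3.93 CPM with Senexin B. The groups did not overlap, line 1 was the highest in both, and line 1 with DMSO stood apart from the other 3. The log2 fold change was -2.11 (standard error 0.16, edgeR adjusted p 0.0125, lower in 4 of 4 lines). Lyz2, the most abundant myeloid marker, was also highest in line 1 with DMSO and had a log2 fold change of -1.14 (edgeR unadjusted p 0.00735). Its part in the fall of Pld4 was not tested, and without line 1 the log2 fold change of Pld4 was -2.14 (edgeR adjusted p 0.0173, lower in the 3 lines left). Tmem255a encodes a membrane protein of unknown function. It had 78.5, 6.58, 47.5 and 19.6 CPM with DMSO and 13.7, 2.36, 11.6 and 4.00 CPM with Senexin B. Lines 1 and 3 were high and line 2 low, and the groups overlapped because of line 2. The log2 fold change was -2.14 (standard error 0.18, edgeR adjusted p 0.0125, lower in 4 of 4 lines). Its reads can include those of Zbtb33 on the opposite strand, which had 10066 counts in the 8 libraries.

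The 7 calls were mostly lost without line 2, 3 or 4, and mostly kept without line 1. Of the 7 genes, 0 passed in edgeR without line 2, where adjusted p ran from 0.0659 to 0.217, and without line 4 0 of 6 tested passed, with adjusted p from 0.163 to 0.382. Without line 3, Pld4 alone of 6 tested passed (edgeR adjusted p 0.0381, log2 fold change -2.23, lower in the 3 lines left). Without line 1, all but Grap2 passed. The direction was kept in each of these fits. Over all alternative fits, log2 fold changes ran from -2.23 to -1.98 for Pld4, -2.28 to -1.98 for Tmem255a and 1.11 to 1.21 for Bhlhe41. They ran from 1.61 to 1.81 for Dchs2, 1.97 to 2.37 for Slco1a5 and 0.96 to 1.08 for Grap2. All 7 passed with DESeq2, with RLE scaling and with every gene of 1 count or more kept. Without the line as a block, 0 genes passed in edgeR, with 243 at an unadjusted p under 0.05. With at least 10 counts required in every library, Pld4, Tmem255a and Bhlhe41 passed, Grap2 did not (edgeR adjusted p 0.0548, log2 fold change 1.03, higher in 4 of 4 lines), and Dchs2 and Slco1a5 were not tested. In 1 fit of all 16 libraries 8 genes passed, 6 of them among the 7, and Slco1a5 did not (edgeR adjusted p 0.0546, log2 fold change 2.17, higher in 4 of 4 lines).

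**Figure D1:**
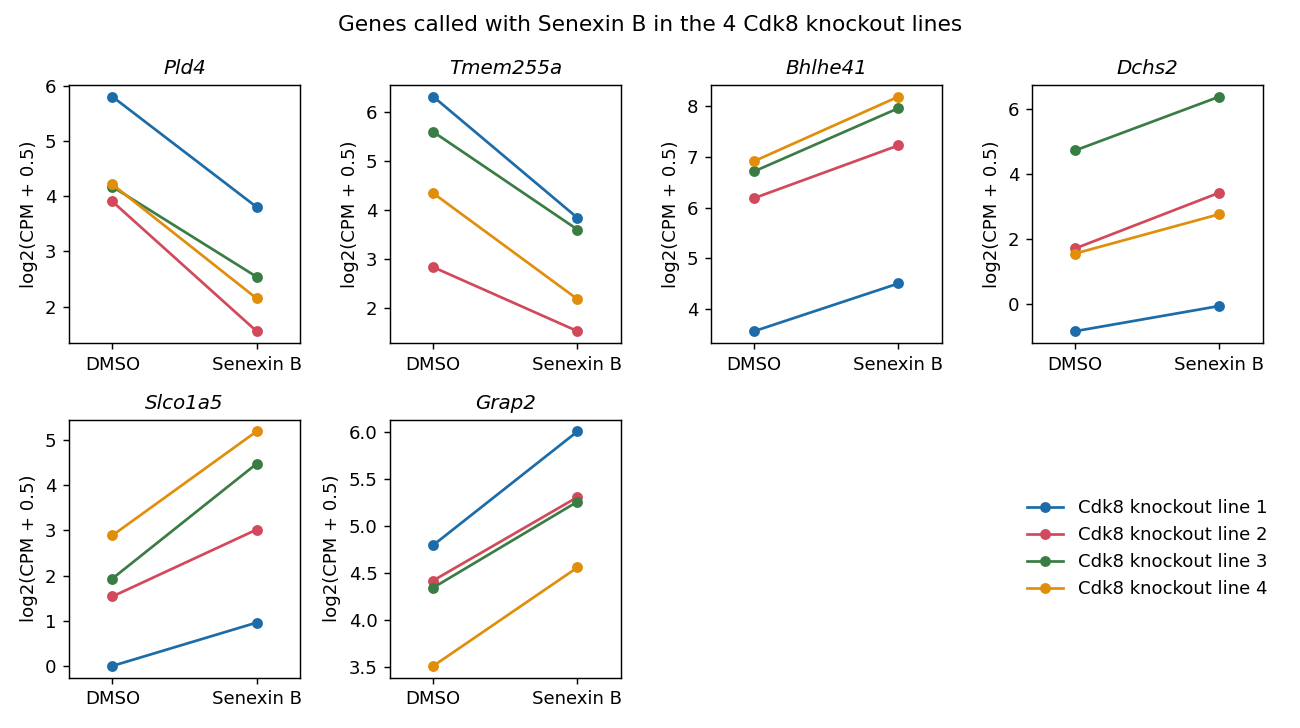
Levels of 6 genes that passed the test in the Cdk8 knockout lines, as log2(CPM + 0.5) on the vertical axis with DMSO and with Senexin B on the horizontal axis, each point 1 library and each line joining the 2 libraries of 1 cell line. All 6 moved in the same direction in 4 of 4 lines, and Dchs2 is near the lower limit in line 1.

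Promoters of the called genes were read to show the sequence around starts that RefSeq gives for them. RefSeq promoters (GRCm38.p6, 250 bases before to 50 after the start) were matched for 6 genes that passed, with 7 promoters in all, and for 17 of 20 genes described next that did not pass, with 20 promoters. Ighg2b, Cxadr and Lynx1 had no entry. Motifs were searched on both strands: TTCNNNGAA, the letters of STAT sites, CACGTG, an E-box of the kind that BHLHE proteins bind, and GAGGAAGT, the letters of ETS-family and PU.1 sites. They are in 8.30%, 7.15% and 3.20% of 32841 promoters of the same length. In the called genes each was found in 1 of 7 promoters. In the 20 promoters of the genes that did not pass, CACGTG was found in 3 (Esx1, Irs1 and Reln) and each of the other motifs in 1 (Csf2rb2 in both cases). A match is a run of letters and shows no binding. Slco1a5 has 2 entries, and its match is in the 1 that lies inside the counted gene (142234227 to 142322981, minus strand), not in the 1 at its outer end. The Csf2rb2 entry begins outside the counted gene, which ends at 78305603. The promoters shown here in the 5′ to 3′ direction of each gene are those of called genes with a match, with the motif in capitals: Bhlhe41 (chr6:145865371-145865670, minus strand, CACGTG), Slco1a5 (chr6:142278825-142279124, minus strand, TTCNNNGAA) and Pld4 (chr12:112760405-112760704, plus strand, GAGGAAGT). That of Csf2rb2 (chr15:78305672-78305971, minus strand) is added as the only promoter of the genes that did not pass with 2 of the motifs. It holds TTCNNNGAA and, on the opposite strand, GAGGAAGT, which do not overlap.
Bhlhe41: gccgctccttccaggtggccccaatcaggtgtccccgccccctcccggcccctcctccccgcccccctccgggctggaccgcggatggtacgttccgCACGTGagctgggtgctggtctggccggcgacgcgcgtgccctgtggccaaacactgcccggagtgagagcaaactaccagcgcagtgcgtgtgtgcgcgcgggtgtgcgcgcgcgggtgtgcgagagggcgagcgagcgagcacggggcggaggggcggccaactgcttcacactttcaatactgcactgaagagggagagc
Slco1a5: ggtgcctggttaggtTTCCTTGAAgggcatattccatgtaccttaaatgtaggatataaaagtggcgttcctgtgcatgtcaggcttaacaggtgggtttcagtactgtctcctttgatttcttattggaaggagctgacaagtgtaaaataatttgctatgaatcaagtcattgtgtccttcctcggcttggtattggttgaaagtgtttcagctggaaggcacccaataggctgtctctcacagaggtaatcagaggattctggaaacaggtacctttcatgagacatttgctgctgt
Pld4: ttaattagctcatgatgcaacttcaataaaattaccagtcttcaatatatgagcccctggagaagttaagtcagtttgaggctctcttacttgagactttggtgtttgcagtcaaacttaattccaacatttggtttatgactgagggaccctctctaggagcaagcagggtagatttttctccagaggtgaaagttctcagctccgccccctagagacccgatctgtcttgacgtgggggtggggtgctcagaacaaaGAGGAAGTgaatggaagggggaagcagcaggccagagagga
Csf2rb2: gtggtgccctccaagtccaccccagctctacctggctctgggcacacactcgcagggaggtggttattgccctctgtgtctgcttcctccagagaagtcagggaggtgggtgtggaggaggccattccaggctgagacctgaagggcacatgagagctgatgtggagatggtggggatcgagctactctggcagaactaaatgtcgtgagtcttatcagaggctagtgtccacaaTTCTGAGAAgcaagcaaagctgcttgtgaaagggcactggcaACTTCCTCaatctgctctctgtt

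Beyond the calls, 61 genes higher and 43 lower had the same sign in 4 of 4 lines, a fold change over 2 and an unadjusted p under 0.05 without passing the adjusted test. The 10 of smallest p in each direction are described here, as values. The nearest was Ighg2b, a constant region of the immunoglobulin heavy chain, with 1.39, 53.9, 26.0 and 1.19 CPM with DMSO and 3.59, 130, 87.5 and 6.53 CPM with Senexin B. Lines 2 and 3 were high and lines 1 and 4 low in both groups (log2 fold change 1.63, edgeR adjusted p 0.0531, higher in 4 of 4 lines), and its reads may be shared with near-identical constant regions. Kcnmb1, a subunit of calcium-activated potassium channels, went from 4.47 to 35.4 CPM in line 3 and from 11.5 to 57.5 in line 4, and from 0.0629 to 0.174 in line 1. Nyx, which encodes a small leucine-rich proteoglycan, had 0.0629, 0.570, 0.0638 and 0 CPM with DMSO and 1.04, 3.13, 0.794 and 0.772 CPM with Senexin B, and every Senexin B library was above every DMSO library. Trio, a large protein with a kinase domain, had 44.6 CPM in line 3 with DMSO against 7.36 to 13.2 in the other lines, and 118 there with Senexin B. Reln, the secreted protein reelin, was at 0 counts in lines 1 and 2 with DMSO and at 19.6 CPM in line 3. The others were Pdzd2, Cxadr (a cell adhesion receptor), Irs1 (the adaptor of the insulin receptor), Esx1 (a homeobox factor) and Lynx1 (a Ly6-type membrane protein), with log2 fold changes of 1.63, 1.73, 1.04, 1.28 and 2.00.

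On the lower side, Gbp2 and Csf2rb2 had groups that did not overlap. Gbp2, an interferon-inducible GTPase, stood at 110, 38.6, 48.2 and 41.8 CPM with DMSO and at 31.4, 21.5, 22.2 and 19.6 CPM with Senexin B, and line 1 with DMSO was far above the rest (log2 fold change -1.22, edgeR adjusted p 0.0831, lower in 4 of 4 lines). Csf2rb2, the mouse paralog of the common beta chain of the IL-3, IL-5 and GM-CSF receptors, had 28.0, 37.0, 76.2 and 48.7 CPM with DMSO and 5.91, 21.9, 23.9 and 9.83 with Senexin B. Its log2 fold change was -1.73 (edgeR adjusted p 0.117, lower in 4 of 4 lines), and reads may be shared with its near copy Csf2rb, which was lower in 3 lines and level in line 2, at 156 CPM in both groups. Bank1, a scaffold of B-cell receptor signalling, had 73.5, 4.18, 34.8 and 28.4 CPM with DMSO and 22.9, 1.18, 19.7 and 8.92 with Senexin B (log2 fold change -1.45, edgeR adjusted p 0.0794, lower in 4 of 4 lines). Line 2 was low in both groups. Pde4a, a cyclic AMP phosphodiesterase, Cd36, a scavenger receptor, Milr1, an inhibitory receptor, and BC028528 had log2 fold changes of -1.24, -2.09, -1.01 and -1.05. The remaining 3, Serpinf1, Crhbp and Crisp1, all secreted proteins, had -1.20, -1.09 and -1.18. Milr1 overlaps Polg2, and BC028528 overlaps C920021L13Rik, on the opposite strand. At an edgeR adjusted p under 0.1 and with no limit on the fold change there were 17 genes, 11 higher and 6 lower.

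**Figure D2:**
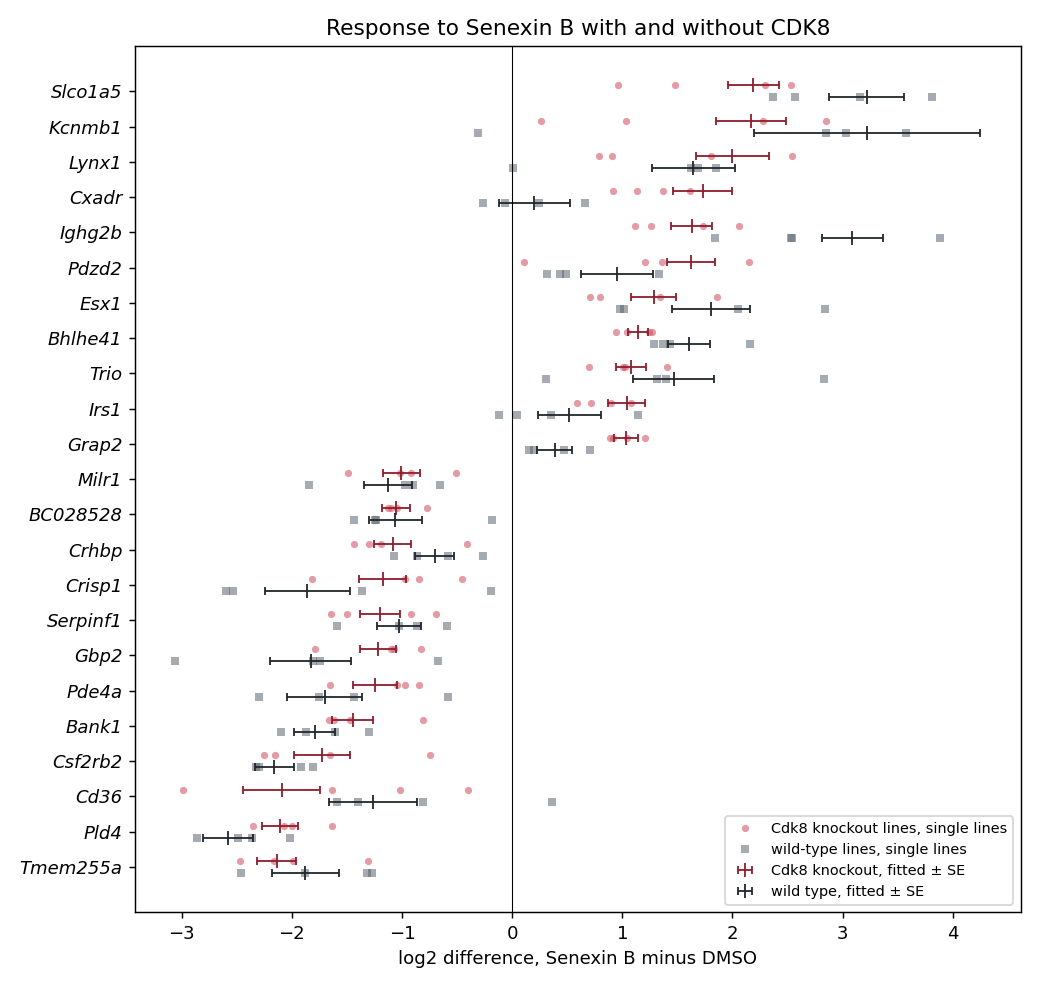
Response of the called genes and of the genes with 1 direction in 4 of 4 lines that were tested in both genotypes, with the log2 difference between Senexin B and DMSO on the horizontal axis, circles for single Cdk8 knockout lines, squares for single wild-type lines, and vertical ticks with bars for the fitted value ± standard error. All 4 Cdk8 knockout lines lie on 1 side of 0 for each gene, while wild-type lines lie on both sides for Cxadr, Irs1, Kcnmb1 and Cd36.

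Gene lists of pathways and functions were read by how many of their tested members were above or below 0, since no list was tested as a whole. Over all tested genes, the median log2 fold change was -0.00594, with 9.0% of genes higher and 10.1% lower in 4 of 4 lines. In the list of TGF-beta and SMAD targets, 14 of 14 tested members had a log2 fold change above 0, with a median of 0.22 and line medians of 0.15, 0.19, 0.39 and 0.55. Higher in 4 of 4 lines were Tgfbr2, which encodes the type II receptor, Smad7 and Pmepa1, feedback inhibitors of the pathway. Tgfbr2 had 64.5, 69.4, 76.4 and 70.5 CPM with DMSO and 78.5, 104, 129 and 125 with Senexin B, and the groups did not overlap (log2 fold change 0.61, edgeR adjusted p 0.154). Smad7 had a log2 fold change of 0.63 and an edgeR adjusted p of 0.189, higher in 4 of 4 lines. With RLE scaling the number above 0 was also 14, and without line 4 it was 12. With DESeq2 it was 15 of 17 members, and with every gene of 1 count or more kept it was 14 of 17. None of the 14 passed by edgeR, and 3 had an unadjusted p under 0.05. In the Notch list 7 of 7 tested members were above 0 (median 0.24), with 1 at an unadjusted p under 0.05, Dtx4, a ubiquitin ligase of the pathway, whose line 4 went from 41.1 to 146 CPM. With DESeq2, 9 of 12 members of the Notch list were above 0, and without line 4 it was 7 of 9. In the list of ID and BHLHE repressors 6 of 6 were above 0 (median 0.39), where Bhlhe41 passed and was the only 1 higher in 4 of 4 lines. Without line 4 it was 5 of 6 (median 0.26), and with DESeq2, which kept 7 members, the median was 0.68. This list shares Id1, Id2 and Id3 with the TGF-beta list, and Hes1 and Hey1 with the Notch list. The counts of these lists are therefore not separate observations.

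Nucleic acid sensing genes were more often below 0 than above. In the list of endosomal nucleic acid sensing 12 of 17 members were below 0 (median -0.20, and -0.08 without line 2), 4 of them in 4 of 4 lines, of which Pld4 passed. Line medians were -0.20 and -0.29 in lines 1 and 2 and 0.04 and -0.02 in lines 3 and 4. The other 3 lower in every line were Tlr9 and Tlr3, receptors for DNA and double-stranded RNA, and Irak1, a kinase downstream of such receptors, chosen after their values were seen, with log2 fold changes of -0.88, -1.13 and -0.20. Higher in 4 of 4 lines were Slc15a4, an endosomal transporter, and Traf6, a ubiquitin ligase downstream of these receptors, also chosen after their values were seen, with log2 fold changes of 0.38 and 0.16. In NF-kB targets 9 of 17 were below 0 (median -0.09, and from -0.16 without line 3 to -0.05 without line 2), among them Icam1, an adhesion molecule, with 31.8, 35.1, 31.8 and 23.4 CPM with DMSO and 21.2, 23.1, 25.5 and 14.0 with Senexin B.

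Signalling and cell cycle genes showed single members with the same sign in every line. Jund, a subunit of AP-1, had 81.8, 61.6, 112 and 98.4 CPM with DMSO and 55.2, 40.8, 76.9 and 65.4 with Senexin B, and the log2 differences of the 4 lines lay between -0.59 and -0.54 (log2 fold change -0.57, edgeR adjusted p 0.117, lower in 4 of 4 lines). It was the only 1 of the 25 immediate early genes lower in 4 of 4 lines, while 4 were higher in 4 of 4. Among these was Dusp4, a phosphatase that inactivates MAP kinases, with 15.6, 8.23, 14.8 and 13.8 CPM with DMSO and 27.8, 20.5, 15.7 and 33.6 with Senexin B, which did not overlap (log2 fold change 0.88, edgeR adjusted p 0.247). Dusp6, of the same family, had a log2 fold change of 0.40. In the whole list, Jund included, 13 of 25 were above 0. Fyn, a SRC-family kinase, had 98.2, 114, 121 and 99.0 CPM with DMSO and 166, 156, 148 and 155 CPM with Senexin B, which did not overlap (log2 fold change 0.53, edgeR adjusted p 0.164, higher in 4 of 4 lines), while Lyn, of the same family, was lower in 4 of 4 lines (log2 fold change -0.39, edgeR adjusted p 0.203). In the PI3K and mTOR list, with 16 of 29 above 0 and 14 without line 2, Pik3ip1, an inhibitor of PI3K, stood at 39.0, 33.2, 40.6 and 32.1 CPM with DMSO and at 54.4, 46.7, 89.1 and 61.2 with Senexin B, and Pik3cd, the catalytic subunit of lymphocytes, was higher in 4 of 4 lines as well (log2 fold changes 0.76 and 0.38). Of the G1 regulators, 11 of 17 were below 0 (median -0.12), with line medians of -0.35, -0.23, 0.04 and -0.01. Without line 1 it was 9 of 17, with a median of -0.04. Ccnd1, cyclin D1, had 102, 23.2, 32.9 and 19.3 CPM with DMSO and 60.2, 10.8, 24.2 and 12.7 with Senexin B, and line 1 was high in both. Ccne2, cyclin E2, had non-overlapping groups (69.4, 46.1, 45.0 and 42.8 against 40.7, 33.0, 34.5 and 35.7 CPM). Their log2 fold changes were -0.72 and -0.48, with edgeR adjusted p of 0.154 and 0.239, lower in 4 of 4 lines. Of the 24 mitotic genes 19 were below 0 with a median of -0.04, but without line 1 it was 6 of 24 with a median of 0.07, and line medians were -0.43, 0.17, 0.07 and -0.06, and the median of the 25 replication genes was -0.01. Glycolysis and hypoxia genes were below 0 in 19 of 27 (median -0.14, line medians -0.18, -0.04, -0.14 and -0.23), with 6 lower and 3 higher in 4 of 4 lines. Aldoa, aldolase A, was lower in every line at -0.47, and Ndrg1, a hypoxia-induced gene, and Pfkp, a phosphofructokinase, were higher in every line at 0.69 and 0.53.

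B-lineage factors and surface genes were mixed. Of 26 transcription factors 16 were above 0 (median 0.04). Ikzf3, the zinc finger factor Aiolos, and Bcl6, a repressor of the germinal center, were higher in 4 of 4 lines, with log2 fold changes of 0.50 and 1.16 and edgeR adjusted p of 0.164 and 0.177. Bcl6 did not overlap between groups, with 1.89, 2.09, 2.81 and 1.33 CPM with DMSO and 3.18, 3.69, 6.97 and 4.63 with Senexin B. Pou2f2, which encodes OCT2, was lower in lines 1, 2 and 4. Of 18 B-cell maturation genes 8 were above 0 (median -0.07), but it was 11 of 17 without line 1 and 4 of 15 without line 3, and line medians were -0.17, -0.27, 0.14 and 0.25. Above 0 was Ccr7, the receptor that guides cells into lymph nodes, with 3.46, 9.81, 36.3 and 13.8 CPM with DMSO and 9.26, 14.5, 108 and 63.2 with Senexin B, higher in 4 of 4 lines (log2 fold change 1.46, edgeR adjusted p 0.134). Fcrl1, an Fc receptor-like protein of B cells, had 20.3 CPM and 18.8 CPM in line 1 and 17.4 and 2.57 CPM in line 3, with DMSO and Senexin B. It was lower in 4 of 4 lines (log2 fold change -1.52, edgeR adjusted p 0.278). In the Ly6 family 4 of 4 tested members were above 0 (median 1.11), mostly from lines 3 and 4, whose medians were 1.52 and 1.48 against -0.01 and 0.14 in lines 1 and 2, and without line 3 it was 2 of 4. With at least 10 counts in every library 2 members were left, with a median of 0.18. Ly6d, a marker of B-lymphoid specification, had 0.702 and 1.85 CPM with DMSO and 8.01 and 17.9 CPM with Senexin B in lines 3 and 4. In the solute carrier list 3 of 3 tested members were above 0, with Slco1a5 passing, with a median of 1.02 that ran from 0.60 without line 3 to 2.37 without line 2. The line 1 median was -0.04, and with at least 10 counts in every library 1 member was left, at 0.47. With DESeq2, which kept 10 members of this list, 7 were above 0 and 3 below.

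Several other lists differed in sign between lines. ATF4 targets were above 0 in 23 of 25, but line medians ran 0.93, 0.51, -0.44 and 0.08, and without line 1 it was 16 of 25 with a median of 0.02. Cholesterol synthesis genes had line medians of -0.99 in line 1 and 0.94 in line 3, and fatty acid synthesis genes -0.32 and 0.47 in the same lines. Medians in V(D)J recombination genes were -0.45 in line 1 and 0.22 in line 3, and those of cytokine receptors ran from -0.36 in line 1 to 0.31 in line 4. STAT5 feedback and survival genes had a median of -0.03, with 4 members higher and 2 lower in 4 of 4 lines. Of these, Lrrc32, which anchors latent TGF-beta at the cell surface, and Pim2, a survival kinase, had log2 fold changes of 1.00 and 0.37, and Spred1, an inhibitor of RAS signalling, had -0.39. Line medians had 1 sign in p53 targets (-0.02, -0.15, -0.09 and -0.06) and in the BCL2 family (-0.17, -0.15, -0.09 and -0.01). The p53 targets had a median of -0.11, with 3 lower in 4 of 4 lines, and -0.06 without line 1. Medians were -0.06 in the BCL2 family (0.03 without line 2), -0.02 in Wnt targets, -0.05 in pre-B receptor signalling, -0.01 in the MYC network and 0.02 in transcriptional CDKs. Each of these signs turned when 1 line was left out. Wnt targets ran from -0.08 without line 1 to 0.05 without line 3. Pre-B receptor signalling ran from -0.17 without line 4 to 0.04 without line 2. Without line 1 and without line 4, the MYC network was at -0.10 and 0.10, and transcriptional CDKs at -0.02 and 0.08. Fc receptor genes, with Fcrl1 among them at -1.52, had a median of 0.30 from 6 tested members, 4 of them above 0. The line medians were -0.24, -0.82, 0.45 and 0.70. Without line 4 that median was -0.01 with 3 of 6 above 0, and with at least 10 counts in every library it was 0.01.

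The remaining members of smallest p in their lists did not pass either. Lower in 4 of 4 lines were Lta, the cytokine lymphotoxin alpha (log2 fold change -1.27), Zmat3 and Ccng1, both p53 targets (-0.67 and -0.25), and Cd79b, a chain of the B-cell receptor (-0.44). Genes of DNA synthesis were among these, with Rrm2, a subunit of ribonucleotide reductase, at -0.36, Prim1, a primase, at -0.28 and Tyms, thymidylate synthase, at -0.27. So were Xrcc5 and Dclre1c, which join DNA ends (both -0.35), Nusap1 and Mki67 of mitosis (-0.38 and -0.25), the cell cycle inhibitor Cdkn2a (-0.29), the MYC antagonist Mxd1 (-0.30) and Mcl1, a survival protein (-0.22). Among lipid genes Idi1, an enzyme of the cholesterol pathway, and Elovl6, which lengthens fatty acids, were lower in every line at -0.70 and -0.50. Higher in 4 of 4 lines were the survival gene Bcl2 (0.36), the Wnt targets Axin2 and Lef1 (0.63 and 0.43), the cystine transporter Slc7a11 (0.76), Acaca, which makes malonyl-CoA (0.27), Rptor of the mTOR complex (0.22) and Wdr12 of ribosome assembly (0.25).

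In others at least 1 line went the other way. Above 0 in the fit were Stc2, a secreted glycoprotein (0.81), Fcrla and Fcrl6 of the Fc receptor-like family (0.71 and 0.69), Il21r, a cytokine receptor (0.62), Il2ra, the alpha chain of the IL-2 receptor (0.48), Gpam of lipid synthesis (0.39), Hes1, a Notch target (0.35), Tm7sf2 and Sc5d of the cholesterol pathway (0.33 and 0.29), Cdk10, a kinase (0.29), and Ly6a, a stem cell antigen (0.22). Below 0 were Atf5, a stress response factor (-0.69), Ltb, lymphotoxin beta (-0.47), Cd55, which limits complement (-0.46), Bok of the BCL2 family (-0.35), Nhej1, which joins DNA ends (-0.34), Rps27l, a p53 target (-0.30), the cyclins Ccna2 and Ccnh (-0.20 and -0.17) and Cdk7, the partner kinase of cyclin H (-0.16). Without line 3, Ly6a had a log2 fold change of -0.15.

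**Figure D3:**
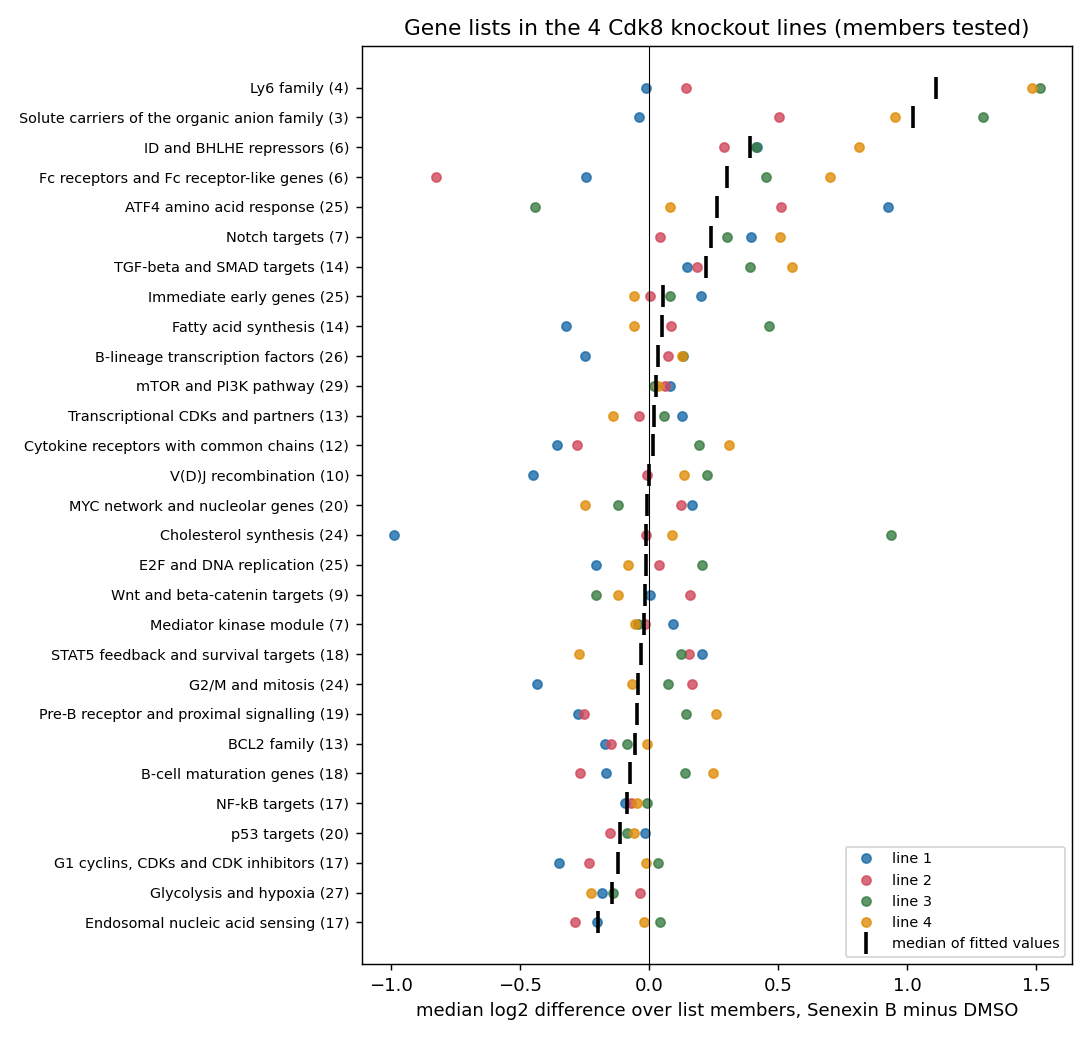
Median log2 difference between Senexin B and DMSO over the tested members of each gene list in the 4 Cdk8 knockout lines, with the number of members tested in parentheses, a colored point per line and a black bar at the median of the fitted values. The 4 line medians lie above 0 for TGF-beta and SMAD targets, Notch targets and ID and BHLHE repressors, and below 0 for glycolysis genes, among others. The list of ID and BHLHE repressors shares members with the TGF-beta and the Notch lists.

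Whether the response differed in lines with CDK8 was asked by comparison with the 4 wild-type lines, which share no library with the knockout lines. There, 45 of 12989 tested genes passed (0.346%), with 9.12% higher and 8.90% lower in 4 of 4 lines. This count ran from 0 without line 2 to 538 without line 1, and DESeq2 called 180. For the difference of the 2 responses, 0 of 14164 genes passed in edgeR (0%), 459 had an unadjusted p under 0.05 (3.24%), and the lowest adjusted p was 0.991. DESeq2 also called 0. Without replicate 1 in both genotypes, 2 genes passed. Across the 12717 genes tested in both genotypes the log2 fold changes had a Pearson correlation of 0.528, which describes these genes, since genes are not independent. Of the 66 genes higher in 4 of 4 knockout lines by more than 2-fold, 49 were tested in wild type, of which 48 had the same sign and 34 the same sign in 4 of 4 lines. Of the 46 lower, 40 were tested, 38 with the same sign and 29 in 4 of 4 lines, and in neither group did 1 gene have the opposite sign in 4 of 4 lines. The share of all 12717 genes with the same sign in both genotypes is not given here. These counts therefore describe the selected genes and are not set against that share.

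Of the called genes, Pld4, Bhlhe41 and Slco1a5 had wild-type log2 fold changes of -2.58, 1.60 and 3.22, and Tmem255a of -1.88 (edgeR adjusted p 0.0525, lower in 4 of 4 wild-type lines). Grap2 had the largest gap by its p, with a log2 fold change of 0.39 in wild type, a difference of 0.66 (standard error 0.18, unadjusted p 0.00348, edgeR adjusted p 0.991), and higher values in 4 of 4 lines of both genotypes. The difference, knockout minus wild type, was -1.02 for Slco1a5 (edgeR unadjusted p 0.0445) and -0.45 for Bhlhe41 (0.0507). It was 0.47 for Pld4 (0.115) and -0.26 for Tmem255a (0.490), and the adjusted p of each was 0.991. Dchs2 was not tested in wild type alone, because its counts were low, with 5, 4, 3 and 2 counts with DMSO and 45, 13, 22 and 3 with Senexin B in the wild-type lines. In the fit of all 16 libraries, the difference in response was -0.95 for Dchs2, with an unadjusted p of 0.0571. The smallest unadjusted p of the difference test belonged to Dnajc6, Osr2, Tpm2, Ctdsp2 and Gbp9, each at an edgeR adjusted p of 0.991. Osr2, a zinc finger factor, was higher in 4 of 4 lines of both genotypes, with log2 fold changes of 0.99 without CDK8 and 2.31 with it. Ctdsp2, a phosphatase of the RNA polymerase II tail, had log2 fold changes of -0.07 and -0.67, and Gbp9 -0.46 and -1.56. Dnajc6 and Tpm2 had at most 17 counts in any knockout library. Tgfbr2, with 0.61 in knockout lines and 0.08 in wild type, had an unadjusted p of 0.0411 for the difference, and Cxadr, with 1.73 and 0.20, one of 0.00319, both at an edgeR adjusted p of 0.991. ATF4 targets were below 0 in 25 of 25 in wild type, against 2 of 25 in the knockout lines, but only 1 of the 25 was lower in 4 of 4 wild-type lines and only 1 higher in 4 of 4 knockout lines. The difference was not tested for the list.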

How the data were processed

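The counts used here are those the authors deposited, made with Trimmomatic, STAR and featureCounts 1.5.1 on GENCODE M13 and GRCm38, without regard to strand. The files list 50686 gene models, 50376 with a symbol and 310 without. The header names an annotation folder called modified in 15 of 16 files, among them all 8 of the knockout lines, and what was modified is not given. No reads were aligned again.

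Genes were filtered with filterByExpr, scaled by TMM and tested with edgeR quasi-likelihood fits (edgeR 4.0.16, limma 3.58.1, R 4.3.3), with the line as a block and Benjamini-Hochberg adjustment. Alternatives were DESeq2 1.42.0 on all genes with a count and, added after seeing the data, on the filtered genes, no block, RLE scaling, other filters, other limits, 1 fit of all 16 libraries, and leaving out each replicate. Figures were drawn with matplotlib 3.10.9 and pandas 2.3.3. The code was tested on simulated data. Members and gene lists were chosen with earlier results of these data known.

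Named genes are the kinase module, the genes that passed, the 10 of smallest p in each direction among genes with 1 sign in 4 of 4 lines and a fold change over 2 that did not pass, members of each list that passed or else up to 3 of smallest p, markers, and the 5 of smallest p in the difference test. Others are said to be chosen after their values were seen. Of what this rule takes, 1 gene that passed, 1 gene list with its members and 1 member of another list are not reported here.

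Pairing was checked by correlating deviations from the group mean. Same-numbered libraries correlated at 0.775 to 0.871 in knockout lines (highest other pair 0.215) and at 0.574 to 0.792 in wild-type lines (highest other pair -0.107). Of the 8 knockout libraries none was a copy of another, with a lowest chi-square per gene of 23.4 over 28 pairs. Wild-type libraries were not compared in this way.

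With 4 lines per genotype, effects of a single line weigh heavily. Each knockout line differs from each wild-type line by origin as well as by genotype, which cannot be told apart. RNA was measured at 48 h only, so early and late effects cannot be told apart. Senexin B was given at 1 dose.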

Additional observations from a re-analysis of the deposited data

Results flagged for a closer look

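Single values far from the other 3 of their group were sought in 143 groups of 4, by the gap to the nearest value over the range (Dixon's ratio), and 19 were found. Among groups of independent, normally distributed values about 1 in 20 would be. Many groups here hold untransformed CPM of the same lines, so that rate does not carry over to them. All 19 values were kept.

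With DMSO, line 1 was apart for Pld4 (55.5 CPM, others 14.5 to 18.1), Gbp2 (110, others 38.6 to 48.2) and Cxadr (2.08, others 0.383 to 0.593). Line 2 was apart for Pdzd2 (46.8 CPM, others 0.126 to 6.60) and Nyx (0.57, others 0 to 0.0638). Line 3 was apart for Dchs2 (26 CPM, others 0.0629 to 2.78), Trio (44.6, others 7.36 to 13.2), Reln (19.6, others 0 to 1.70) and Ctdsp2 (218, others 120 to 131).

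With Senexin B, line 1 was apart for Pde4a (10.4 CPM, others 1.83 to 3.12) and Crisp1 (41.8, others 0.974 to 6.32). Line 2 was apart for Cdk8 (62.4 CPM, others 41.5 to 44.2) and Nyx (3.13, others 0.772 to 1.04). Line 3 was apart for Dchs2 (83 CPM, others 0.463 to 10.3), Trio (118, others 12.3 to 27.4), Esx1 (106, others 4.50 to 18.4) and Ctdsp2 (211, others 112 to 125).

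Of the list medians, line 4 was apart for STAT5 feedback and survival targets (-0.272, others 0.126 to 0.207) and line 1 for B-lineage transcription factors (-0.248, others 0.0755 to 0.133).

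Nop16, a nucleolar protein, was lower in 4 of 4 knockout lines (log2 fold change -0.247) and higher in 4 of 4 wild-type lines (0.24). The difference had an unadjusted p of 0.0103 and an edgeR adjusted p of 0.991, and its source was not tested.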

How the results depend on the processing

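In the knockout lines 7 genes passed. With an adjusted p under 0.1 and the fold change still over 2 there were 15, with a fold change over 1.5 7, with RLE scaling 7 and in 1 fit of all 16 libraries 8, of which 6 were among the 7 (Slco1a5 had an edgeR adjusted p of 0.0546, with a log2 fold change of 2.17, higher in 4 of 4 lines). DESeq2, on all genes with 1 count or more, called 77, or 193 with no limit on the fold change. On the genes of the edgeR fit, an alternative added after seeing the data, it called 77, or 201 with no limit on the fold change. With every gene of 1 count or more kept, 105 passed, or 258 with no limit on the fold change. With at least 10 counts in every library 3 passed, with or without that limit, and Grap2 did not (edgeR adjusted p 0.0548, log2 fold change 1.03, higher in 4 of 4 lines).

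Leaving out 1 line gave 0 to 31 genes (31 without line 1, 0 without line 2, 2 without line 3, 0 without line 4), and 0 to 44 with no limit on the fold change. The genes with 1 sign in every line, 2543 with 4 lines, numbered 3946 to 4409 with 3 lines, where fewer lines have to share the sign.

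Without the replicate block 0 genes passed in the knockout lines, with or without the limit on the fold change, and 0 in wild type. Without the block Med12l had a log2 fold change of 0.0157 instead of -0.02.

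In wild type, 45 genes passed, against 180 with DESeq2 (177 on the genes of the edgeR fit), 407 with every gene of 1 count or more, 28 with at least 10 counts, 85 in 1 fit of all libraries, and 0 to 538 when 1 line was left out. For the difference of responses, 0 passed, against 2 with every gene of 1 count or more 0 with DESeq2 on either set of genes, and 0 to 2 when 1 replicate was left out.

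The sign turned for few named genes. Over all alternative fits, Cdk19 ranged from -0.0906 to 0.0333 (0.0333 without line 1), Med13 from -0.0584 to 0.0225 (0.0225 without line 4), Med12l from -0.19 to 0.18 (0.03 without line 2, 0.18 without line 4) and Ly6a from -0.15 to 0.56 (-0.15 without line 3).

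The 7 genes that passed had 65 alternative fits, of which 28 were weaker and 0 turned sign. Of 992 fits of 101 other named genes, 58 were stronger and 6 turned sign. Of 300 medians of the 30 lists, 13 were marked as moved, but that mark left out some changes. Without line 1, the median of mitotic genes went from -0.04 to 0.07 and that of ATF4 targets from 0.26 to 0.02. That of cholesterol synthesis genes went from -0.01 to 0.37. None of these was marked. A gene that an alternative filtered out got no value, such as Dchs2 and Slco1a5 with at least 10 counts in every library.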
